A study of Mus musculus with 24 samples.

Results

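The 10 genes described here mark antigen presentation on major histocompatibility complex (MHC) class II and the mononuclear phagocytes that carry it in mouse liver. They were listed by name, with no threshold on their values, though earlier results of these data were known when the list was made: Cd74, H2-Aa, H2-Ab1, H2-Eb1, H2-DMa, Ciita, Cd86, Itgax, Cx3cr1 and Ccr2. All 10 were measured, each by 1 probe set, among 19938 genes with a value. Liver RNA of 24 mice was hybridised to Affymetrix MoGene 1.0 ST arrays, 1 array a mouse, in a design that crossed 2 diets with 2 bacterial states. All mice were wild-type C57Bl/6 males, given in the labels as 11 weeks of age. All ate a diet with 45% of its energy as fat for 11 weeks and were fasted for 4 hours before sampling. Age and feeding time are both given as 11 weeks, so the age at sampling is unclear. The 4 groups, of 6 mice each, paired conventional or germ-free status with a fat source, lard or menhaden fish oil. Germ-free mice are raised without microbes, and conventional mice carry bacteria. Both diets were high in fat, so no group on a low-fat diet stands beside these values. The labels give no stock, litter, cage or array batch, so source and group cannot be told apart.

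MHC class II molecules are pairs of alpha and beta chains that show peptides from taken-up material to CD4+ T cells. The invariant chain, Cd74, fills their groove until it is cut down, and the DM molecule then exchanges its last piece for a peptide. The co-activator Ciita switches these genes on together in dendritic cells, B cells and macrophages, and interferon gamma induces it in other cells. In liver the resident macrophages are the Kupffer cells, and dendritic cells and monocytes that arrive from the blood add to the phagocytes there. Ccr2 and Cx3cr1 are chemokine receptors of monocytes, and Itgax encodes the integrin CD11c of dendritic cells and some macrophages.

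Promoters of class II genes share a module in which an X box and a Y box lie a fixed distance apart, held by the RFX complex and NF-Y, to which Ciita is recruited. The windows of H2-Aa and H2-Eb1 are shown because both hold letters of these boxes, printed in capitals: GCAACT for the start of the X box and CTGATTGG for the Y box. The letters were chosen after these windows had been read. Sequences are RefSeq's on build GRCm38.p6, from 250 bases before to 50 bases after the start of the gene, written 5′ to 3′ on the gene's strand. H2-Aa lies on the minus strand at chr17:34287774-34288073 and H2-Eb1 on the plus strand at chr17:34305617-34305916.
H2-Aa: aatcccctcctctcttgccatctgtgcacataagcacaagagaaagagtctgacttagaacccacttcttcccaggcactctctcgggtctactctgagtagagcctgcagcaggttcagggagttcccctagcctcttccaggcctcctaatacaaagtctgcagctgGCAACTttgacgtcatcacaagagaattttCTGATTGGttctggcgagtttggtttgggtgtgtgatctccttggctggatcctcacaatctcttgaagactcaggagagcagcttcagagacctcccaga
H2-Eb1: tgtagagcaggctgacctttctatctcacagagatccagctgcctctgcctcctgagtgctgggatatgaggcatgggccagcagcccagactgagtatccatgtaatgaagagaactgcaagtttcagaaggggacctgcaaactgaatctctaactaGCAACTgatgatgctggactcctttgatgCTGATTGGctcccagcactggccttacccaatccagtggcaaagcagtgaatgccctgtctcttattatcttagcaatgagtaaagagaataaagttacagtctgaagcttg
In H2-Aa the X box letters began 81 bases and the Y box letters 51 bases before the start, with 24 bases between them. In H2-Eb1 they began 91 and 62 bases before it, with 23 bases between. Searched on both strands, CTGATTGG was in 4.07% of 32544 RefSeq promoter windows and GCAACT in 10.9%. Both in this order within 60 bases were in 0.0461%, or 15 windows. Of the other members in the promoter table, the window of Itgax held GCAACT alone and those of H2-DMa, Cx3cr1 and Ccr2 held neither. These matches are a description of the letters and show no binding.

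Values are log2 signals, so a difference of 1 is a 2-fold change, and values of different probe sets cannot be set against each other. Array medians lay between 6.44 and 6.62. The arrays of mice 3 and 4 of the fish oil germ-free group were far closer than any other of the 60 pairs within groups: their SD over the 300 most variable genes was 0.123, and that of the next pair 0.349. Whether they hold 1 liver is not known from the labels, and they entered as 1 sample by their mean. That group therefore has 5 samples, and each other group 6. The 9 measured hepatocyte genes averaged 13.59 to 13.69 on every sample, which fits the labelled tissue. Cd74, the 3 class II chain genes, H2-DMa and Cx3cr1 lay above the array's median on all 24 arrays. Cd86 and Itgax lay below it on 20 arrays each and Ciita on 24, and Ccr2 was below its array's 25th percentile on 15 of 24. The files used here hold no detection calls, so differences of Ccr2 are those of a dim probe set. The mice are labelled as separate animals, and p-values measure the spread between them.

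Some of the class II genes differed between the diets when both bacterial states were averaged. Cd74, H2-Ab1, the beta chain of the I-A molecule, and H2-Eb1, a further beta chain gene, fell on fish oil by 1.25-fold, 1.36-fold and 1.29-fold. With the integrin gene Itgax they made 4 of the 10 genes called lower, at an adjusted p under 0.05 in limma, where 15.7% of all genes were called and 10.3% were called lower. The median difference of the 10 was -0.30, against 0.01 over all genes tested. In bulk liver, fewer cells of a type and less RNA per cell cannot be told apart, here and below. The values are of RNA, and whether a class II protein was made from it was not measured.

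Cd74 lay between 10.19 and 11.05, with a median of 10.54, in lard conventional mice and between 10.09 and 10.63, with a median of 10.33, in fish oil conventional mice. In germ-free mice it lay between 10.01 and 10.69, with a median of 10.61, on lard. On fish oil the 5 germ-free samples were 9.86, 10.03, 9.82, 9.85 and 10.49, in the order of mice 1, 2, 3 and 4 joined, 5 and 6, which holds for all values of this group below. The diet groups overlapped in both bacterial states, and in germ-free mice the overlap came from fish oil mouse 6 and lard mice 5 and 6. The log2 difference was -0.32 ± 0.11 (SE, adjusted p = 0.0404).

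H2-Ab1 lay between 9.33 and 10.34 (median 9.83) in lard conventional mice and between 8.99 and 9.79 (median 9.53) in fish oil conventional mice. In germ-free mice it lay between 9.21 and 10.03 (median 9.81) on lard, and at 9.07, 9.30, 8.96, 8.94 and 9.77 on fish oil. Every fish oil sample lay below the median of the lard group in its bacterial state, but the groups overlapped in both states. Its difference was -0.45 ± 0.13 (adjusted p = 0.0195). H2-Eb1 lay between 8.90 and 9.97 (median 9.49) in lard conventional mice and between 8.60 and 9.37 (median 9.18) in fish oil conventional mice. On lard the germ-free range was 8.96 to 9.58 (median 9.38), and on fish oil the germ-free values were 8.86, 9.04, 8.78, 8.72 and 9.49. These groups also overlapped, and the difference was -0.37 ± 0.12 (adjusted p = 0.0322). H2-Aa, the alpha chain of I-A, had a difference of similar size, -0.35 ± 0.17, and did not pass (adjusted p = 0.156). Its spread within groups, an SD of 0.443, was above that of 98.3% of genes.

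**Figure D1:**
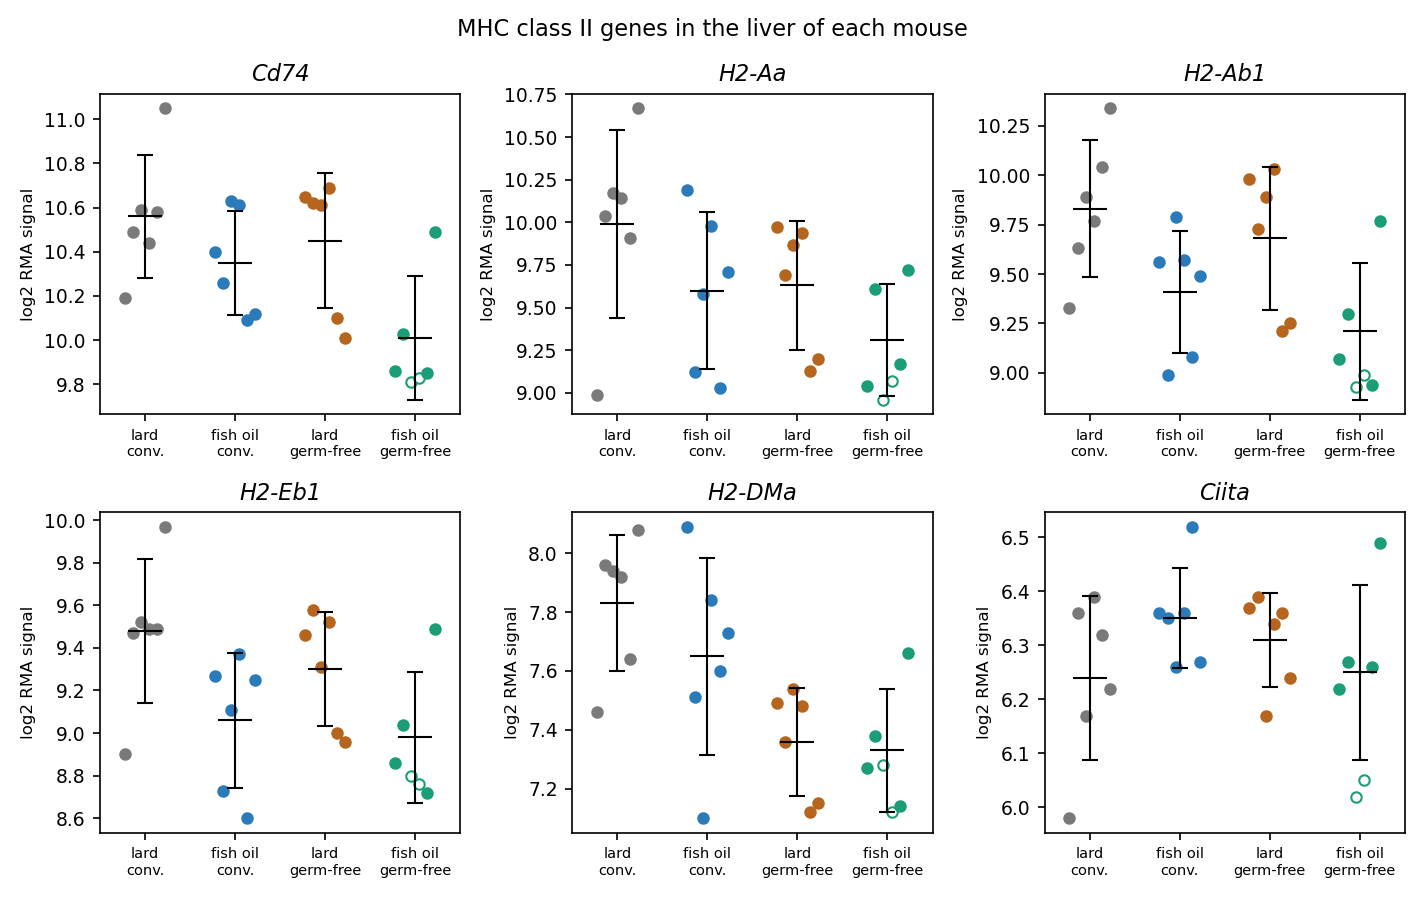
Log2 signal of Cd74, H2-Aa, H2-Ab1, H2-Eb1, H2-DMa and Ciita (vertical axis) in each mouse of the 4 groups (horizontal axis), with the mean and SD over samples as bars and the joined mice 3 and 4 of the fish oil germ-free group as open circles. In H2-Ab1 the fish oil means of 9.41 and 9.21 lie below the lard means of 9.83 and 9.68, with overlapping mice.

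The class II values of single mice moved together. The mean of Cd74, H2-Aa, H2-Ab1 and H2-Eb1 was 9.36 in both lard germ-free mice 5 and 6, against 9.90 to 10.05 in the other 4 of that group. In the fish oil germ-free group it was 9.87 in mouse 6 and 9.13 to 9.49 in the other mice. Lard conventional mouse 1 was low at 9.35 and mouse 6 high at 10.51. Without germ-free mice 5 and 6 of both diets, the diet difference in germ-free mice was -0.74 for Cd74 (adjusted p = 0.00528) and -0.80 for H2-Ab1 (adjusted p = 0.015), and with them -0.43 (adjusted p = 0.0636) and -0.47 (adjusted p = 0.101). Lard mice 5 and 6 and fish oil mouse 6 lay against the diet difference in these same values. Leaving them out, together or singly, enlarges it by construction and adds no support for it. Without 1 mouse at a time, the Cd74 difference passed without fish oil germ-free mouse 6, lard germ-free mouse 5 or 6 or lard conventional mouse 6 (adjusted p 0.0204 to 0.0443). That of H2-Ab1 passed without fish oil germ-free mouse 6 or lard germ-free mouse 5 (0.0365 and 0.0499).

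Within one bacterial state, no class II gene passed. In conventional mice 0 of the 10 genes were called by limma, against 0.808% of all genes, and their median difference was -0.14, against 0.01 over all genes. At an unadjusted p under 0.05, which 16.6% of all genes reached, H2-Ab1 (-0.42, 95% interval -0.79 to -0.05) and H2-Eb1 (-0.42, -0.75 to -0.08) were lower. The difference between the diet effects in the 2 states had intervals of -0.59 to 0.48 for H2-Ab1 and -0.39 to 0.58 for H2-Eb1, too wide to tell equal effects from unequal ones. For Cd74 that interval was -0.66 to 0.21 and for H2-Aa -0.62 to 0.75.

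The Cd74 call was lost without any 1 of 14 samples, with an adjusted p between 0.0532 and 0.0774: lard conventional mice 3, 5 and 6, fish oil conventional mice 2, 5 and 6, lard germ-free mice 1 to 4, and of the fish oil germ-free group mice 1, 2 and 5 and the joined sample. The H2-Eb1 call was lost without any 1 of 9 (0.0539 to 0.069): lard conventional mouse 6, fish oil conventional mice 2 and 5, lard germ-free mice 1, 2 and 4, and of the fish oil germ-free group mice 1 and 5 and the joined sample. H2-Ab1 passed with each sample left out in turn, and H2-Aa passed without lard conventional mouse 1 (-0.45, adjusted p = 0.0343). With a clock index (the signal of Dbp minus that of Arntl) as a covariate the calls of Cd74, H2-Ab1 and H2-Eb1 were lost at differences of -0.32, -0.45 and -0.42 (adjusted p 0.208, 0.135 and 0.12). Without fish oil conventional mice 5 and 6 they were lost at -0.26, -0.42 and -0.34 (0.127, 0.0501 and 0.066).

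Between the bacterial states, with the diets averaged, H2-DMa and Cd86 were the genes called. H2-DMa encodes the alpha chain of DM. It and Cd86, the ligand that gives T cells their co-stimulatory signal through CD28, fell in germ-free mice averaged over both diets, 1.32-fold and 1.38-fold. They were 2 of 10 called, against 7.84% of all genes and 4.51% called lower. The median of the 10 genes was -0.15, and that of all genes -0.02.

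H2-DMa lay between 7.46 and 8.08 (median 7.93) in lard conventional mice and between 7.12 and 7.54 (median 7.42) in lard germ-free mice. On fish oil it lay between 7.10 and 8.09 (median 7.66) in conventional mice and at 7.27, 7.38, 7.20, 7.14 and 7.66 in germ-free mice. The lard groups overlapped only slightly, while fish oil conventional mouse 3 lay below every fish oil germ-free sample. The difference was -0.40 ± 0.10 (adjusted p = 0.0105). On each diet alone it did not pass, at -0.48 ± 0.13 on lard (adjusted p = 0.0622) and -0.31 ± 0.14 on fish oil (adjusted p = 0.194). It passed on lard without lard conventional mouse 1 or 5 or fish oil conventional mouse 1 or 3 (-0.55 to -0.48, adjusted p 0.0253 to 0.0499), and on fish oil without fish oil conventional mouse 3 (-0.42, adjusted p = 0.0411).

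Cd86 lay between 6.09 and 7.17 (median 6.33) in lard conventional mice and between 5.78 and 6.29 (median 6.12) in lard germ-free mice. On fish oil it lay between 6.17 and 7.14 (median 6.55) in conventional mice and at 6.12, 6.17, 6.24, 5.75 and 5.87 in germ-free samples. The groups overlapped on both diets, and the highest values were those of conventional mice. The difference averaged over diets was -0.46 ± 0.11 (adjusted p = 0.0103). On fish oil it was -0.54 ± 0.16 (adjusted p = 0.0399), which made Cd86 the 1 gene of 10 called there, against 6.91% of all genes and 3.89% called lower. On lard it was -0.38 ± 0.15 (adjusted p = 0.281), and the difference between the diets did not pass (-0.17, 95% interval -0.63 to 0.29). The fish oil call was lost without any 1 of 7 mice, fish oil conventional mice 1, 2 and 6 and germ-free mice 1, 2, 5 and 6 (adjusted p 0.0523 to 0.1). Without germ-free mice 5 and 6 of both diets the averaged difference was -0.34 (adjusted p = 0.0893).

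Markers of resident macrophages and of leukocytes as a class fell in the same comparison, as did those of sinusoidal endothelium. Of 15 Kupffer cell genes 12 fell and 0 rose in germ-free mice averaged over diets, with a median of -0.70. Vsig4, a complement receptor, was 2.14-fold lower, the lectin gene Clec4f 1.64-fold and the complement gene C1qb 1.81-fold. Of 12 pan-leukocyte genes 9 fell and 0 rose, with a median of -0.34, among them Fermt3, Arhgdib and Cyth4. The mean of that list was 8.19 ± 0.20 (SD, n = 6) in conventional and 7.94 ± 0.18 (n = 6) in germ-free mice on lard, and 8.31 ± 0.21 (n = 6) and 7.84 ± 0.08 (n = 5) on fish oil. Of both lists, 0 genes lay in the lowest 25% of genes. Of 12 sinusoidal endothelial genes 6 fell, with a median of -0.33, so the fall was not confined to leukocyte genes. Medians were closer to that of all genes for the monocyte and recruited macrophage (-0.06), dendritic cell (-0.07), B cell (-0.08), T and NK cell (-0.06) and neutrophil (-0.05) lists. These lists are dimmer: 7 of 12 neutrophil, 6 of 14 T and NK cell and 5 of 11 B cell genes lay in the lowest 25% of genes. So did 3 of 16 in each of the monocyte and dendritic cell lists. Their smaller medians therefore do not show that these cells changed less. With the pan-leukocyte mean as a covariate the averaged difference was -0.05 for H2-DMa (adjusted p = 0.86) and 0.01 for Cd86 (adjusted p = 0.969). With the clock index instead, the differences were -0.31 for H2-DMa (adjusted p = 0.0765) and -0.40 for Cd86 (adjusted p = 0.0563). The part of cell number in either call was not tested.

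Ciita was not called in any comparison. Its group means were 6.24, 6.35, 6.31 and 6.25 (lard conventional, fish oil conventional, lard germ-free and fish oil germ-free), with SDs of 0.0871 to 0.162. The 95% interval of its diet difference averaged over states was -0.08 to 0.14, and that of germ-free minus conventional averaged over diets -0.13 to 0.10. Its signal was below the median gene on every array.

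**Figure D2:**
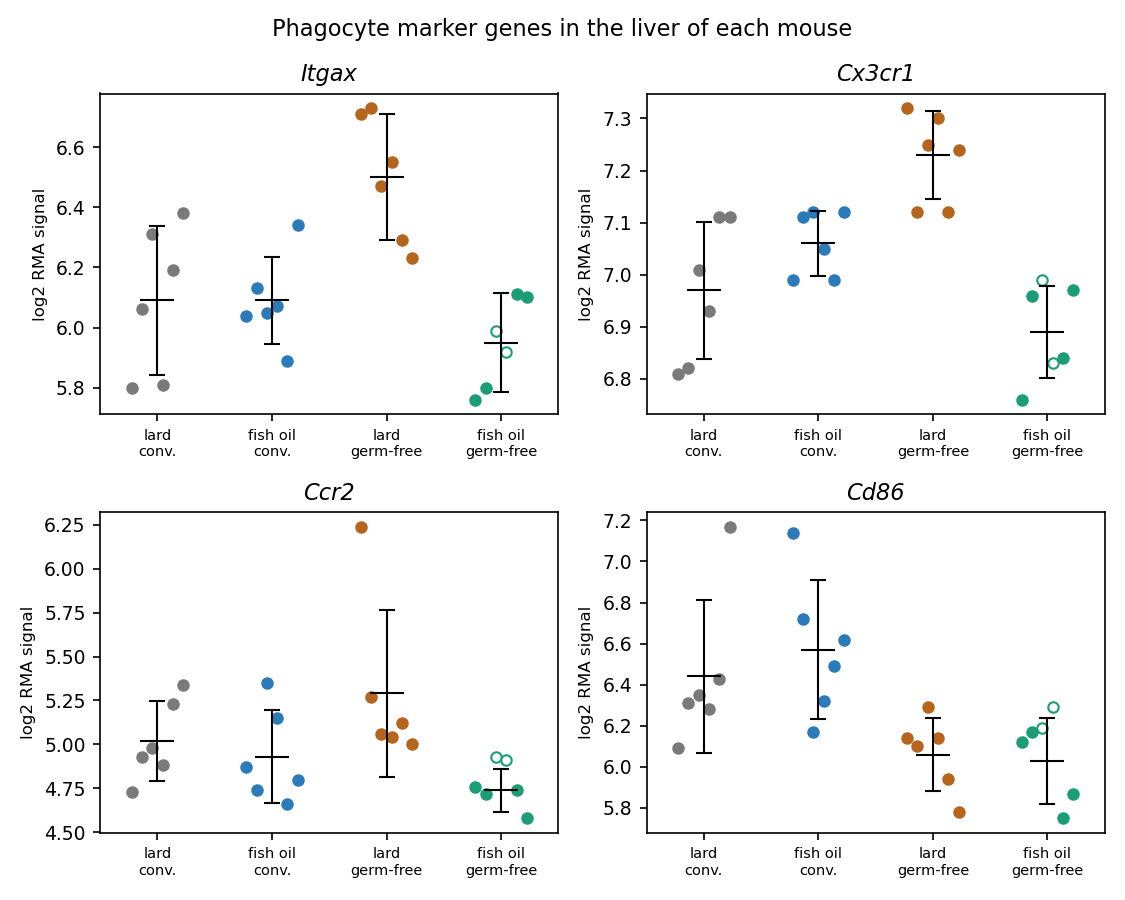
Log2 signal of Cd86, Itgax, Cx3cr1 and Ccr2 (vertical axis) in each mouse of the 4 groups (horizontal axis), drawn as for the class II genes. Itgax and Cx3cr1 are highest in lard germ-free mice, with means of 6.50 and 7.23, and Ccr2 of lard germ-free mouse 1 stands apart at 6.24.

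The phagocyte receptors differed between the diets in germ-free mice. Itgax, Cx3cr1 and Ccr2 fell on fish oil there by 1.47-fold, 1.27-fold and 1.46-fold. They were 3 of the 10 genes called, against 13.2% of all genes and 8.59% called lower. The median of the 10 was -0.33 and that of all genes 0.0029, and all 10 differences lay below 0. The same 3 genes had groups with no shared range, which 12% of all genes had.

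Itgax lay between 6.23 and 6.73 (median 6.51) in lard germ-free mice and at 5.76, 5.80, 5.95, 6.11 and 6.10 in fish oil germ-free samples. Every lard mouse was above every fish oil sample, and the difference was -0.55 ± 0.11 (adjusted p = 0.0018). In conventional mice it lay between 5.80 and 6.38 (median 6.12) on lard and between 5.89 and 6.34 (median 6.06) on fish oil, and the 95% interval of the difference was -0.22 to 0.22. The test of the difference between the 2 diet effects gave -0.55 ± 0.16 and did not pass (adjusted p = 0.101). It passed without germ-free mice 5 and 6 of both diets (-0.78, adjusted p = 0.0367). Those mice had the lowest lard and the highest fish oil values of Itgax, so leaving them out enlarges the difference by construction.

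Cx3cr1, the receptor of the membrane chemokine fractalkine, lay between 7.12 and 7.32 (median 7.24) in lard germ-free mice. In fish oil germ-free samples it was 6.76, 6.96, 6.91, 6.84 and 6.97, below every lard mouse. The difference was -0.34 ± 0.07 (adjusted p = 0.00113). In conventional mice it lay between 6.81 and 7.11 (median 6.97) on lard and between 6.99 and 7.12 (median 7.08) on fish oil, with a difference of 0.10 (95% interval -0.03 to 0.23). The 2 diet effects differed by -0.44 ± 0.09 (adjusted p = 0.0326), 1 of 10 genes called in that test against 0.607% of all genes and 0.391% with a negative value. The median of the 10 genes in it was -0.17, and that of all genes -0.02. This call was lost without any 1 of 9 mice (adjusted p 0.0544 to 0.0677): fish oil conventional mouse 4, fish oil germ-free mice 1 and 5, lard conventional mice 1, 2 and 4, and lard germ-free mice 1, 3 and 4. Its value then stayed between -0.44 and -0.41, and with array medians made equal it was -0.35 (adjusted p = 0.0558). The spread of Cx3cr1 within groups was small, an SD of 0.0957, above that of 6.01% of genes. Fish oil germ-free mice 3 and 4, joined here, were at 6.99 and 6.83.

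Ccr2, the receptor that draws monocytes along the chemokine Ccl2, was 6.24 in lard germ-free mouse 1 and lay between 5.00 and 5.27 in the other 5, with a group median of 5.09. In fish oil germ-free samples it was 4.76, 4.72, 4.92, 4.74 and 4.58. The ranges did not overlap, and the difference was -0.55 ± 0.17 (adjusted p = 0.0332). Without lard germ-free mouse 1 it was -0.36 (adjusted p = 0.0585). The call was also lost without lard germ-free mouse 2 or fish oil germ-free mouse 1, 2, 5 or 6 (adjusted p 0.0524 to 0.0841), and with the clock index it was -0.43 (adjusted p = 0.169). In conventional mice the difference was -0.09 (95% interval -0.42 to 0.25), and the difference between the diet effects did not pass (-0.46, adjusted p = 0.442). Averaged over both states, the diet difference was -0.32 for Ccr2 (adjusted p = 0.0675) and -0.12 for Cx3cr1 (adjusted p = 0.0738), and -0.28 ± 0.08 for Itgax, which was called (adjusted p = 0.017). Ccr2 passed there without fish oil conventional mouse 3 or lard germ-free mouse 6 (0.0311 and 0.0483), and Cx3cr1 without lard conventional mouse 1 or 2 (0.0438 and 0.0468).

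**Figure D3:**
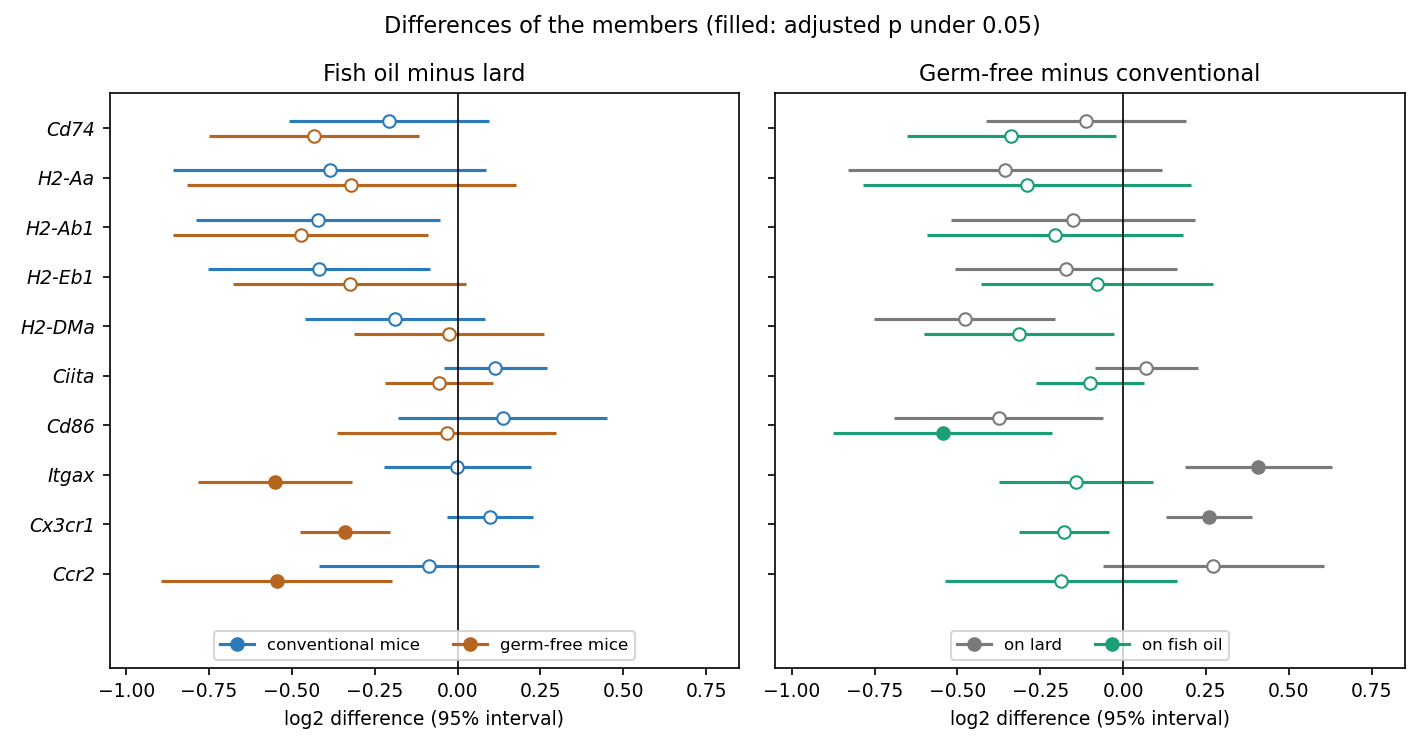
Log2 differences of the 10 genes (horizontal axis, with 95% intervals as lines) for fish oil minus lard in conventional and germ-free mice (left) and for germ-free minus conventional on each diet (right), with filled points at an adjusted p under 0.05. On the left, the filled points are Itgax, Cx3cr1 and Ccr2 in germ-free mice, at -0.55, -0.34 and -0.55.

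The list counts for the diets in germ-free mice stand beside 13.2% of all genes called and 8.59% called lower. Of 16 dendritic cell genes 5 fell, 0 rose and 11 did not pass on fish oil in germ-free mice, with a median of -0.08. The 3 with the smallest p were Naaa, an amidase gene (-0.52), Cd24a, a surface glycoprotein gene (-1.10), and Fscn1, which encodes the actin bundler fascin (-0.44). The list's mean spanned 6.82 to 6.98 in lard germ-free mice and 6.62 to 6.72 in fish oil germ-free samples, and 3 of the 16 genes lay in the lowest 25% of genes. Of 16 monocyte and recruited macrophage genes 1 rose (Nr4a1, 0.88) and 1 fell (Gpnmb, -0.82), with a median of -0.09. Of 15 Kupffer cell genes 1 rose, Clec4f (0.40), and 0 fell. Of 12 pan-leukocyte genes 1 fell, Arhgdib (-0.40). Of 12 sinusoidal endothelial genes 2 fell, Lyve1 (-0.93) and Eng (-0.44), with a median of -0.22. Of 14 T and NK cell genes Cd4 rose (0.39) and Ncr1 fell (-0.34), with a median of 0.04. Of 11 B cell genes 0 passed (median -0.16), of 12 neutrophil genes 0 (median 0.06), and of 9 hepatocyte genes 0. The part of these cells in the receptor calls was not tested.

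On lard, Itgax and Cx3cr1 were higher in germ-free than in conventional mice, 1.33-fold and 1.20-fold. These 2 of 10 genes were called, against 1.82% of all genes and 1.13% called higher. The comparison shares the lard germ-free mice with the diet comparison in germ-free mice, so both rest on the same high values. The median of the 10 genes was -0.13 and that of all genes -0.01. Cx3cr1 differed by 0.26 ± 0.06 (adjusted p = 0.0301), with no shared range, which 2.08% of all genes had. Itgax differed by 0.41 ± 0.11 (adjusted p = 0.0495), with ranges that overlapped.

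The Itgax call on lard was lost without any 1 of 15 samples: the lard mice 1, 2 and 4 of the conventional group and 1, 2, 3 and 4 of the germ-free group, fish oil conventional mice 1, 2 and 4, and every fish oil germ-free sample (adjusted p 0.0521 to 0.147). The Cx3cr1 call was lost without any 1 of 6, lard conventional mice 1, 2 and 4 and lard germ-free mice 1, 3 and 4 (0.0591 to 0.0992). With the 2 lard groups fitted alone in limma, both calls were lost (Itgax adjusted p = 0.0748, Cx3cr1 0.0549). H2-DMa was called there instead (-0.48, adjusted p = 0.0259). Of 16 monocyte and recruited macrophage genes, Gpnmb rose (0.96) and Treml4 fell (-0.75) on lard, and of 16 dendritic cell genes 0 passed. Of the 15 Kupffer cell genes 5 fell, and 0 of 12 pan-leukocyte genes passed.

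On fish oil the germ-free minus conventional difference was -0.14 for Itgax (95% interval -0.37 to 0.09), -0.18 for Cx3cr1 (adjusted p = 0.112) and -0.19 for Ccr2 (-0.54 to 0.16). The median of the 10 genes was -0.20 and that of all genes -0.03. Cx3cr1 had no shared range, as 3.8% of all genes did, but the margin was small: the lowest conventional mouse was at 6.99 and the highest germ-free sample at 6.97. Germ-free mouse 3, taken alone, was at 6.99.

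Mouse to mouse, with group means taken out, Cd74, H2-Aa, H2-Ab1 and H2-Eb1 varied together over 23 samples. Of 45 pairs among the 10 genes, 16 passed a permutation test of Pearson's r after Benjamini-Hochberg adjustment, all with a positive r. H2-Aa and H2-Eb1 gave r = 0.919 (rho 0.886, permutation p = 1e-05, the smallest that 100000 permutations can give, adjusted p = 0.00015), and r = 0.883 without the 2 farthest samples. Cd74 and H2-Ab1 gave r = 0.914 (rho 0.899, permutation p = 1e-05, adjusted p = 0.00015), and 0.88 without them. H2-DMa followed H2-Aa (r = 0.772, rho 0.875, permutation p = 9e-05, adjusted p = 0.000675), and 0.723 without the 2 farthest samples. It was less close to H2-Ab1 (r = 0.513, permutation test, adjusted p = 0.0478) and did not pass with Cd74 (r = 0.498, adjusted p = 0.0517). Ciita passed with no other gene of the 10, and its highest r was 0.394, with H2-DMa. The 2 farthest samples, here and below, were picked by a single gene of each pair, and extreme values of the other stayed in. In a pair with a receptor or Cd86 they were picked by the class II gene. In a relation with a marker list they were picked by the gene or class II mean, not the list.

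The receptors Itgax, Cx3cr1 and Ccr2 had lower correlations with Cd74, H2-Aa, H2-Ab1 and H2-Eb1 than those genes had with each other. Itgax passed with all of those class II genes, at r from 0.554 to 0.633. Cx3cr1 and H2-Ab1 gave r = 0.645 (rho 0.723, permutation p = 0.00255, adjusted p = 0.0115), and 0.547 without the 2 farthest samples. Itgax and H2-Eb1 gave r = 0.633 (rho 0.605, permutation p = 0.00217, adjusted p = 0.0108), and 0.554 without them. Ccr2 passed with none of the 9 other genes, and its highest r was 0.461, with H2-Ab1. Cd86 passed with H2-DMa and no other gene of the 10 (r = 0.59, rho 0.466, permutation p = 0.0108, adjusted p = 0.0373), and r was 0.451 without the 2 farthest samples. The arrays were normalized together, which the samples of every pair share.

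Over the same samples, 48 relations of these genes with the means of 8 marker lists were computed, and 8 passed. All that passed were of Cd86, H2-DMa or the mean of the 4 class II genes. Itgax, Cx3cr1 and Ccr2 passed with no list. With the monocyte and recruited macrophage list they gave r = 0.562 (permutation test, adjusted p = 0.0535), 0.283 (0.394) and 0.287 (0.464). Cd86 passed with that list (r = 0.736, adjusted p = 0.00696) and with the Kupffer cell list (0.636, 0.0162). H2-DMa passed with the monocyte (0.587, 0.0478), Kupffer cell (0.641, 0.0302) and dendritic cell lists (0.634, 0.0186). Cd86 and the pan-leukocyte mean gave r = 0.807 (rho 0.74, permutation p = 7e-05, adjusted p = 0.00336), and 0.679 without the 2 farthest samples. H2-DMa and the pan-leukocyte mean gave r = 0.695 (rho 0.666, permutation p = 0.00089, adjusted p = 0.0142), and 0.574 without them. The mean of the 4 class II genes gave its highest r with the dendritic cell list, at 0.684 (rho 0.664), and 0.548 without the 2 farthest samples.

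**Figure D4:**
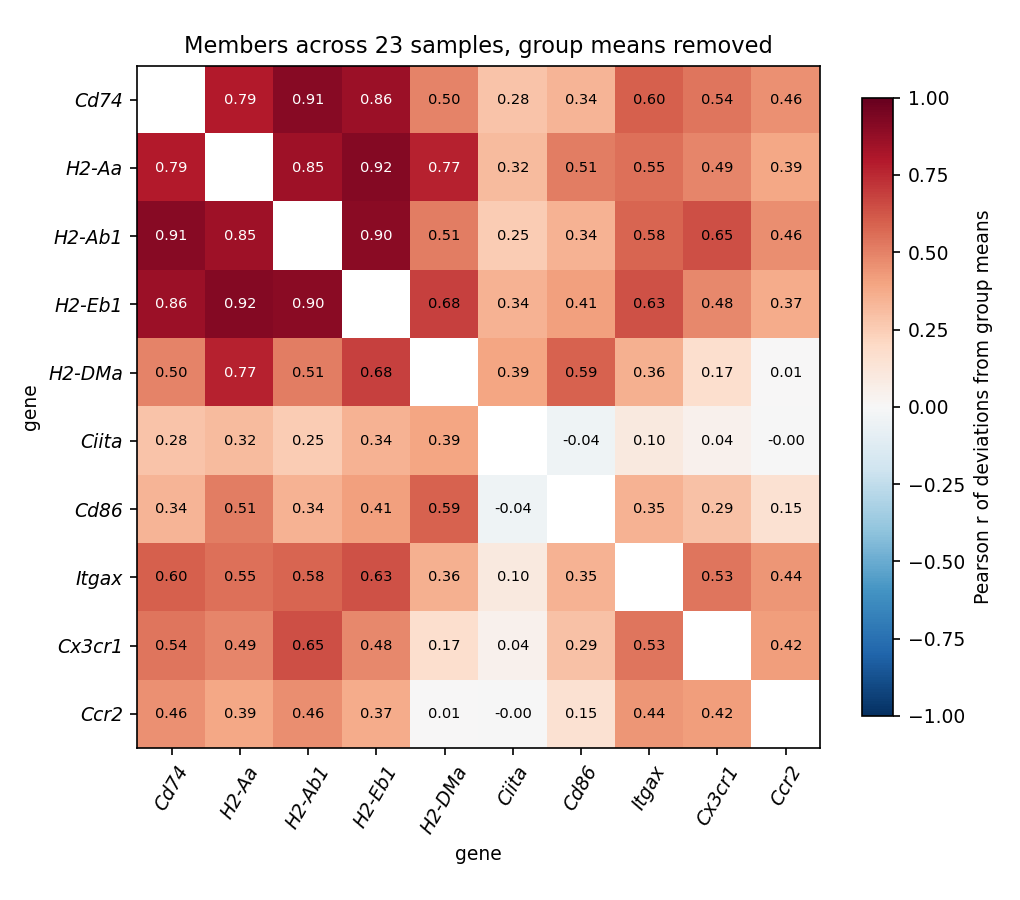
Pearson's r of deviations from group means over 23 samples for each pair of the 10 genes (both axes list the genes), from -1 in blue to 1 in red. Cd74, H2-Aa, H2-Ab1 and H2-Eb1 form the darkest block, with r from 0.794 to 0.919, and the line of Ciita is palest.

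Among 9963 genes above the median gene, those most like the mean of Cd74, H2-Aa, H2-Ab1 and H2-Eb1 over these 23 samples were Cxcl9 (r = 0.816), Gbp3 (0.807) and Cd180 (0.803). Cxcl9 is a chemokine and Gbp3 a guanylate-binding protein gene, both induced by interferon gamma, and Cd180 encodes a relative of the Toll-like receptors. Most like Itgax were Tubb2a (r = 0.789), Creb3l1 (0.741) and Dbn1 (0.695). Most like Cx3cr1 were Nek7 (0.73), Ifi27l2b (0.675) and Slc25a17 (0.651), and most like Ccr2 were BC029722 (0.818), Plekha1 (0.791) and Impact (0.771). These are the highest of many values and are given as a description.

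Of 18 other genes of class II loading and regulation, 0 passed between the diets in conventional mice, and averaged over both states 1 rose and 0 fell: Rfxank, a subunit of the RFX complex, by 0.31. In germ-free mice on fish oil against lard 1 fell, the protease gene Ctsl (-0.20). Germ-free minus conventional, averaged over diets, 4 fell and 0 rose, with a median of -0.10. They included Lgmn, a lysosomal protease gene (-0.42), Ifi30, a lysosomal thiol reductase gene (-0.55), and Rfx5, another RFX subunit (-0.30). Of 13 genes of the interferon gamma axis, 2 fell on fish oil averaged over states, Gbp3 (-0.29) and the transcription factor gene Irf1 (-0.25). In that comparison 15.7% of all genes were called and 10.3% called lower, and no list count given for it here or below exceeds the share called in either direction. Irf1 (-0.45) and the receptor gene Ifngr1 (-0.24) were the 2 of 13 that fell in germ-free mice averaged over diets, where 7.84% of all genes were called and 4.51% called lower. Of 16 genes of phagocyte recruitment and growth factor signalling, 0 passed in either state between the diets. In germ-free against conventional mice averaged over diets 5 fell, with the macrophage growth factor receptor gene Csf1r at -0.55, the integrin gene Itgb2 at -0.37 and the cytokine receptor gene Csf2rb at -0.40.

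Between the diets the medians of the marker lists lay between -0.09 and 0.24, beside -0.30 for the 10 genes. Averaged over both states, 2 of 15 Kupffer cell genes rose on fish oil, Clec4f (0.38) and Cd5l (0.46), with a list median of 0.24, and 0 fell. Of 16 dendritic cell genes Naaa (-0.40) and Cd24a (-0.65) fell, with a median of -0.04. Of the B cell genes 0 of 11 passed (median -0.07), and none of the 11 lay above the median gene. Of 12 pan-leukocyte genes 0 passed, with a median of 0.02. Of 14 T and NK cell genes 1 fell, Ncr1 (-0.25), and of 12 neutrophil genes 0 passed. Of 12 sinusoidal endothelial genes 1 fell, Lyve1 (-0.50), and of 9 hepatocyte genes 1 rose, Fgb (0.14).

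In germ-free against conventional mice averaged over diets, with 4.51% of all genes called lower, 2 of 11 B cell genes fell, Bank1 (-0.79) and Fcer2a (-0.28). Of 12 sinusoidal endothelial genes 6 fell, with Mrc1 at -0.41, Cdh5 at -0.38 and Clec4g at -0.63. Of 14 T and NK cell genes 1 fell, Cd4 (-0.42), of 16 dendritic cell genes 1 fell, Xcr1 (-0.23), and of 12 neutrophil genes 0 passed. Of 16 monocyte and recruited macrophage genes 2 fell, Treml4 (-0.84) and Fcgr1 (-0.35). Of 9 hepatocyte genes 1 rose, Ttpa (0.17).

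**Figure D5:**
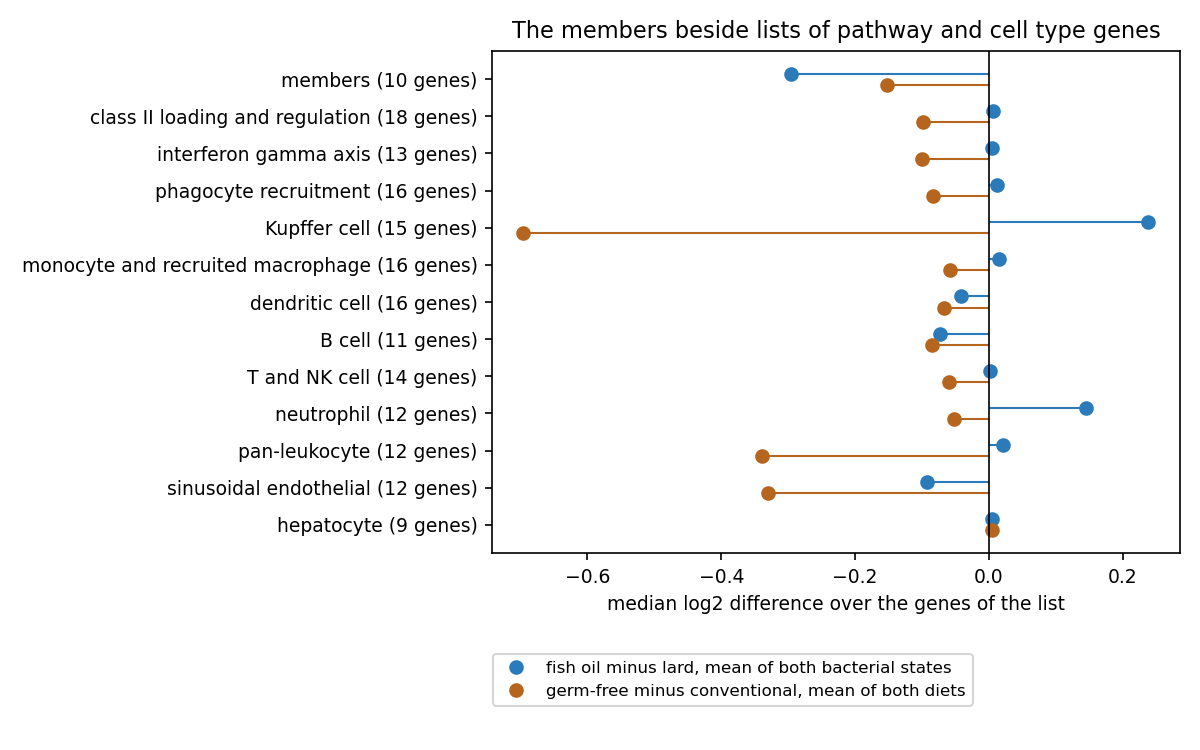
Median log2 difference (horizontal axis) over the genes of the 10 and of each other list (vertical axis, with the number of genes measured), for fish oil minus lard averaged over bacterial states in blue and germ-free minus conventional averaged over diets in brown. The 10 genes lie at -0.30 and -0.15, and the Kupffer cell genes at 0.24 and -0.70.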

How the data were processed

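The authors' deposited values are log2 signals from gene-level RMA, run with Expression Console, per the file headers. The headers name version 1.1.2800.28061 of its apt engine and release r4 of the library, and the labels' protocols give 250 ng of RNA for each labelling. Quantile normalization hides a change shared by most genes, and median polish can blend genes with shared probe sequence, such as class II paralogs. The 2 deposited log2 tables differed by at most 0.005, and the one with more decimals was used. Of 35556 probe sets, 21789 had 1 gene symbol, 1621 several and 12146 none listed, and Entrez identifiers gave a current symbol for 21698. Of 999 genes with more probe sets the one with the highest mean was kept, for 19938 genes in all, none dropped for a low level. The build of the array annotation was not given in the labels or headers, so coordinates are those of RefSeq's promoter windows alone, and 6 of the 10 genes had a window. Arrays have no read depth, and precision is set by how many mice there were.

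Fish oil germ-free mice 3 and 4 were joined, as the plan allowed, leaving 23 samples. Tests used limma 3.58.1 under R 4.3.3 (lmFit, eBayes defaults) on 4 group means with a pooled spread. Benjamini-Hochberg adjustment of the two-sided p-values ran over all genes within each comparison, a gene was called under 0.05, and values after ± are SEs of log2 differences. The procedure was tested on simulated data. Correlations used deviations from group means with 100000 permutations within groups, over 45 pairs of genes and 48 relations with marker lists, adjusted within each family. The members and lists were chosen with earlier results of these data known. The rule named all 10 members, up to 3 called genes of each list and comparison by p, and the 3 genes most like the class II mean, Itgax, Cx3cr1 and Ccr2. The labels do not pair mice by number, and the main fit used no pairing. Alternatives covered level filter, probe set rule, scaling, variance model, array weights, the other table, single arrays, blocks, covariates and left-out mice.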

Additional observations from a re-analysis of the deposited data

Results flagged for a closer look

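Of 40 sets of values (10 genes in 4 groups), 2 held a mouse far from the rest of its group, and chance alone gives about 1 in 20. Cd86 of lard conventional mouse 6 was 7.17, above the other 5 mice. Without it the germ-free minus conventional difference was -0.23 on lard (adjusted p = 0.564) and -0.39 averaged over diets (adjusted p = 0.0122). Ccr2 of lard germ-free mouse 1 was 6.24, and without it the diet difference in germ-free mice was -0.36 (adjusted p = 0.0585). The effect of diet on Cx3cr1 differed between germ-free and conventional mice by -0.44 (adjusted p = 0.0326 in limma): the gene was lower on fish oil in germ-free mice and was not called in conventional mice.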

How the results depend on the processing

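Over 37 alternatives, 70 differences of the 10 genes gave 2532 values, of which 2396 stayed on their side of the threshold, 100 lost a call, 34 gained one and 2 reversed a called difference. Among the 2396, 76 values of differences that were not called changed sign. Both reversals of a call were Cd86 with the pan-leukocyte mean as a covariate, at 0.067 in germ-free against conventional mice on fish oil and 0.0123 averaged over diets, with the cause not tested. The number of the 10 genes called moved as follows, and the cause was not tested. For fish oil against lard in germ-free mice it went from 3 to 5 with 24 arrays as separate samples to 6 with array weights, to 4 without germ-free mice 5 and 6, and to 2 with equal array medians, the level filter, the 2 groups alone or the clock covariate. For that diet contrast averaged over states it went from 4 to 6 with array weights, to 2 with a repeated quantile normalization, and to 1 with a clock covariate, Dbp minus Arntl, or without fish oil conventional mice 5 and 6. For germ-free against conventional on lard it went from 2 to 1 with genes above the median level only, with the 2 groups alone or with the other table. With the 2 groups alone the gene called was H2-DMa, and both Itgax and Cx3cr1 were lost. On fish oil it went from 1 to 0 with the level filter, equal array medians, repeated quantile normalization, the 2 groups alone, either covariate, or without mice 5 and 6 of the fish oil conventional or of the germ-free groups, and to 2 with array weights. Averaged over diets it went from 2 to 1 with the level filter or without germ-free mice 5 and 6, and to 0 with either covariate. The test of the difference between diet effects went from 1 to 0 with equal array medians, repeated quantile normalization or the leukocyte covariate, and to 2 with array weights or without germ-free mice 5 and 6. The filter drops Cd86, Itgax, Ciita and Ccr2 by construction.

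Leaving out 1 sample at a time, the number called ranged from 0 to 0 and 2 to 5 for fish oil against lard in conventional and germ-free mice and 2 to 6 averaged. For germ-free against conventional it ranged from 0 to 3 on lard, 0 to 2 on fish oil and 2 to 2 averaged, and from 0 to 1 for the difference between diet effects. With the mouse number as a replicate block it was 2 for the diets in germ-free mice (Ccr2 lost, adjusted p = 0.0549) and 3 averaged (Cd74 lost, 0.0636). It was 1 for bacterial status on lard (Itgax lost, 0.0776), 0 on fish oil (Cd86 lost, 0.0561) and 0 for the difference between diet effects (Cx3cr1 lost, 0.0573). The labels do not pair same-numbered mice, and the values do not settle whether they share a source or handling. Over 36 such pairs r of deviations from group means ran from -0.403 to 0.427, and 14 were above 0.1. It ran from 0.039 to 0.427 between the 2 germ-free groups, and from -0.403 to 0.122 between the 2 lard groups. Of 24 arrays 7 were most like their own number, with no chance level computed. Genes called among all 19938 ranged over the alternatives from 0 to 743, 1432 to 3914, 804 to 4205, 163 to 1084, 261 to 2075, 243 to 2527 and 24 to 457 in the same order. With equal array medians the share of calls that were higher was 60.2% instead of 34.8% for the diets in germ-free mice, 48.9% instead of 34.3% averaged, 74.4% instead of 43.7% for bacterial status on fish oil, 61.1% instead of 42.4% averaged, and 75.6% instead of 35.5% for the difference between diet effects.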
